A study of Mus musculus with 6 samples.

Results

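The clustered, replication-dependent histone genes were examined in BM Tregs of naive mice and of mice with chronic myeloid leukemia (CML). They were chosen by name alone, as the features whose symbol starts with Hist1h, Hist2h, Hist3h or Hist4h, and 69 of the 36930 features in each library met this rule. The symbol also gives the class. By it, 6 genes were of the linker histone H1, 19 of H2A, 19 of H2B, 12 of H3 and 13 of H4. Among them, Hist1h2al (H2A) and Hist3h2bb-ps (H2B) are annotated as processed pseudogenes. By their GENCODE M21 positions (GRCm38), 55 genes lay on chromosome 13 (Hist1), 10 on chromosome 3 (Hist2), 3 on chromosome 11 (Hist3) and 1 on chromosome 6 (Hist4h4). Those on chromosome 13 form the Hist1 locus, apart from Hist1h2al, which lies far from the others. No clustered histone gene passed the threshold between CML and naive Tregs. Yet 49 of the 67 genes that could be tested (73.1%, compared with 35.7% of all features) had a higher fitted level in CML Tregs. Without CML replicate 2, the library of lowest depth, these shares were 91.0% and 47.1%. H2B genes were the most often higher, and CML replicate 3 held the highest value of the 6 libraries for 49 genes. The genes are near copies of each other, and without CML replicate 3 their median log2 fold change fell from 0.33 to 0.03.

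Chromatin is built of nucleosomes, in which DNA wraps around a core of the histones H2A, H2B, H3 and H4, while H1 binds the linker DNA between nucleosomes. A dividing cell has to double its histones in S phase, and most of this supply comes from the clustered histone genes, which have no introns in most cases and are transcribed mainly during DNA replication. Their mRNAs end in a conserved stem-loop in place of a poly(A) tail, and stem-loop binding protein (Slbp) binds there to guide processing, translation and decay. Variants encoded elsewhere, such as H2afz and H3f3b, carry poly(A) tails and are made throughout the cell cycle.

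All 6 mice were of the Foxp3-DTR-GFP strain and genotype and were sampled at postnatal week 8. In this strain the Foxp3 locus, the locus of the lineage factor of Tregs, drives a diphtheria toxin receptor and GFP. CML was induced in 3 mice by i.v. injection of syngeneic LSKs, an immature BM population that holds the stem cells, which had been transduced with a BCR-ABL1-GFP retrovirus, and these recipients were not irradiated, so that normal hematopoiesis of the host remained beside the leukemia. The 3 naive mice carried no leukemia, and FACS-purified BM Tregs of each mouse gave 1 library. Leukemic cells and Tregs both carry GFP in this model. The kit used, SMART-Seq v4, primes cDNA from poly(A) tails.

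Depth was read from the values themselves. For each library it was fitted from the lowest depth searched at which all 13 H4 genes gave whole reads. The H4 genes thus matched by construction. For each gene, coding lengths were tried first and transcript lengths after them. For 66 of the 69 clustered histone genes, value times length times depth came to a whole number of reads in all 6 libraries within a tolerance of 0.05 reads, which a single value meets by chance in 10% of cases. For 65 of them the length was that of the coding sequence alone, so that reads past the stop codon did not enter these values. The depths that follow were 7613436, 829200 and 2286147 reads in the CML group and 5188383, 8771726 and 9751237 reads in the naive group. Here and below, 3 values of a group stand in the order of replicates 1, 2 and 3. CML replicate 2 stood apart, since 50.7% of its values by sum lay in its 10 highest features, while the other 5 libraries had 28.5% to 31.3% there. In that library the median clustered histone gene had 13 reads, and 45 of 65 genes had under 20, compared with medians of 78 to 177 reads in the other libraries. A count of 20 reads has an exact 95% Poisson interval of 12.2 to 30.9 reads, and a count of 3 reads one of 0.619 to 8.77. Such intervals describe the error of counting only, since the cDNA was amplified and no molecular identifiers mark the original molecules. All 8 Treg markers, Foxp3 among them, had reads in every library, and their summed level was 1884 to 2579 RPKM in CML and 1838 to 2075 RPKM in naive libraries.

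The sequences that set these genes apart at both ends of the transcript are shown first. The stem-loop, searched in the direction of the transcript as GGNNC followed at once by TTTTCAG and NNCC, was found behind the stop codon of 35 of 67 coding members, and these were 35 of the 51 whose annotated transcript runs at least 40 bases past the stop codon. It began 24 to 58 bases after the stop codon, with a median of 31. Among all 55450 genes with a transcript in GENCODE M21, 51 (0.092%) held it. Of 3 forms, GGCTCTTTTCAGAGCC occurred in 26 members and in no H4 gene, while the 9 H4 genes with a stem-loop had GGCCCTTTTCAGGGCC (7 genes) or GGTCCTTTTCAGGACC (2 genes). The stem-loops below, with the 16 bases of the match in capitals, belong to the gene with the smallest p (Hist1h3d), the gene with the largest fold change (Hist3h2ba), the most abundant genes of the H1 and H4 classes and an H4 gene with the rarest form. They come from GENCODE M21 transcripts.
Hist1h3d: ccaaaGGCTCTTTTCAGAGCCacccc
Hist3h2ba: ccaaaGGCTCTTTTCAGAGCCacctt
Hist1h1c: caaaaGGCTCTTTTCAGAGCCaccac
Hist1h4d: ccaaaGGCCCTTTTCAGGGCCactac
Hist1h4b: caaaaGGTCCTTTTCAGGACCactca
The 5 sequences share the loop and differ in the base pairs of the stem, and every difference on the left arm is matched on the right.

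Promoters in RefSeq (GRCm38.p6, from 250 bases before the start to 50 after) matched 61 members by symbol. On either strand, TATAA was present in 48 of them (78.7%, compared with 25.5% of all 27025 promoters) and CCAAT in 52 (85.2%, compared with 37.9%). The octamer ATTTGCAT, the site known for Oct-family factors and for H2B promoters, was in 13 (21.3%, compared with 1.75%), of which 7 were H2A and 6 were H2B genes. These are not all separate sites, since windows of divergent neighbors can overlap. The same octamer was counted for Hist1h2aa and Hist1h2ba, for Hist1h2ae and Hist1h2bg, and for Hist1h2ah and Hist1h2bk. H4 promoters differed from the rest in that 3 of 12 held CCAAT, whereas all promoters of the other classes did. Matches to different motifs may share letters. The promoters of 4 genes without overlap between CML and naive libraries are shown, with all 3 motifs in capitals on either strand: the H3 and H2B genes with the smallest p, an H2B gene of the Hist1 locus and an H2A gene that holds the octamer.
Hist1h3d (chr13:23575513-23575812, plus strand): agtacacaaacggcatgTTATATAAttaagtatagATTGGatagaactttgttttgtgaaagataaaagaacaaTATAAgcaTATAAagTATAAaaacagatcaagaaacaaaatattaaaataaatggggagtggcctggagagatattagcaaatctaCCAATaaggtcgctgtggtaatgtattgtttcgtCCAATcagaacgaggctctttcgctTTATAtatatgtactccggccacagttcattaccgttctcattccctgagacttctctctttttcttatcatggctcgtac
Hist3h2ba (chr11:58948661-58948960, plus strand): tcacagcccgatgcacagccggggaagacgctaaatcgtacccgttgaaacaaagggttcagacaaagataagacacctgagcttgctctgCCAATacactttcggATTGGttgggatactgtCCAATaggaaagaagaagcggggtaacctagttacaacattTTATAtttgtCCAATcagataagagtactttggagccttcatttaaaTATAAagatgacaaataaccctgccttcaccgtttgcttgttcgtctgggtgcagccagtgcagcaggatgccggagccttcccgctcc
Hist1h2bf (chr13:23574158-23574457, minus strand): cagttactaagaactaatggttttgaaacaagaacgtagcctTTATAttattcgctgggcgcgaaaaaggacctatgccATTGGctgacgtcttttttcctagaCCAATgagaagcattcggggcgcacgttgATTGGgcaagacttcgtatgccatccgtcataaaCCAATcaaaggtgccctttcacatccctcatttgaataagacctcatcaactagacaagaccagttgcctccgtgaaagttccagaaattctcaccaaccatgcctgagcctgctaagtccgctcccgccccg
Hist1h2ah (chr13:22035594-22035893, minus strand): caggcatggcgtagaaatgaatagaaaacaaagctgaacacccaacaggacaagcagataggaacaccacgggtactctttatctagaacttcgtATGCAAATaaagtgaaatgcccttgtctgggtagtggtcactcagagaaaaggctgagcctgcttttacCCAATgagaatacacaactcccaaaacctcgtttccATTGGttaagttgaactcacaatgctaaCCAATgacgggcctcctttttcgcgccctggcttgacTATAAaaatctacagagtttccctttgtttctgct
Each of the 4 holds TATAA and CCAAT, and Hist1h2ah alone among them has the octamer, as its reverse complement. A match is a description of the letters and not evidence of a bound factor.

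The members are near copies of each other. The 67 coding members had 63 distinct coding sequences, and in 50 of them fewer than 50% of all 76-base windows, the length of a read, were unique among GENCODE transcripts. The median share of unique windows was 30.8% over all classes, 11.9% in H2A, 22.8% in H3, 31.0% in H2B, 35.9% in H4 and 91.3% in H1. How reads that fit several copies were assigned is not given in the sources used here, so the level of a single H2A, H2B, H3 or H4 gene is uncertain. Sums over a class do not depend on how reads were divided among its members, but 41 of the 67 genes also shared windows with transcripts outside the members. Such windows made up 66.1% of all windows in H2A, 31.0% in H3, 15.4% in H4, 5.65% in H2B and 0% in H1, and in 7 genes they were all the windows, so that class sums too, H2A above all, carry this uncertainty. Hist1h2al and Hist3h2bb-ps are processed pseudogenes in this annotation.

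Between CML and naive Tregs the 69 genes fell into 67 that were tested, their mean over all libraries being 1 RPKM or more, and 2 that were not. Hist1h1t, the testis H1, was at 0 in every library, and Hist1h2aa, the testis H2A, had 1 read in naive replicate 2 and 2 reads in naive replicate 3. The mean levels of the tested members ranged from 5.10 to 762 RPKM with a median of 56.0 RPKM. A feature was called at an adjusted limma p under 0.05 with a fold of at least 1.5, and 0 of 67 members met this, where 0.172% of the 13923 features tested did (0.0431% higher and 0.129% lower). At an unadjusted limma p under 0.05, 12 members (17.9%) were higher in CML Tregs and 0 were lower, compared with 2.92% higher and 6.77% lower among all features. Every CML value exceeded every naive value in 11 members (16.4%, compared with 4.84% of all features), and in 0 members every CML value was below every naive value (12.2% of all features). The median log2 fold change (CML minus naive, on the log2(RPKM + 1) scale) was 0.33 over the members and -0.18 over all features. It was above 0 in 73.1% of the members and in 35.7% of all features. Without CML replicate 2 these shares were 91.0% and 47.1%. The median level of all features was 12.94 RPKM, below the 56.0 RPKM of the members, so that all features are not a background matched for level. In bulk RNA, more cells that make histone mRNA and more histone mRNA in each cell cannot be told apart. The cDNA was primed from poly(A) tails, which most of these mRNAs lack. The values thus describe the part of histone mRNA that was captured, and whether this part differed between the groups was not tested.

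The direction held under other scalings, but the counts moved with single libraries. Scaling all libraries to the same distribution moved the median of all features to -0.01 and that of the members to 0.39, so that the distance between them went from 0.50 to 0.39, and with the same 75th percentile in every library it was 0.51. Under either of these scalings 20 members (29.9%) had no overlap, all higher in CML, compared with 8.88% of all features higher under the former and 6.49% under the latter. Features at an unadjusted p under 0.05 were split into 406 higher and 942 lower (30.1% higher), and the quantile-normalized values gave 742 higher and 757 lower (49.5% higher). Without CML replicate 2, the library of lowest depth, 34 members (50.7%, compared with 5.98% of all features) were higher at an unadjusted limma p under 0.05 and 39 (58.2%, compared with 13.9%) had no overlap, with a median of 0.57 for the members and -0.03 for all features, and 0 members were called. Without CML replicate 3 the members' median was 0.03, compared with -0.24 for all features. At an unadjusted limma p under 0.05, 5 members were then higher and 1 was lower, compared with 365 and 1241 of all features. The medians of H1, H2A and H4 turned to -0.06, -0.03 and -0.14 without this library. Without naive replicates 1, 2 and 3 in turn, 7, 6 and 2 members were higher at this threshold. Among all features 273, 258 and 268 were, compared with 406 when no library was left out.

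**Figure D1:**
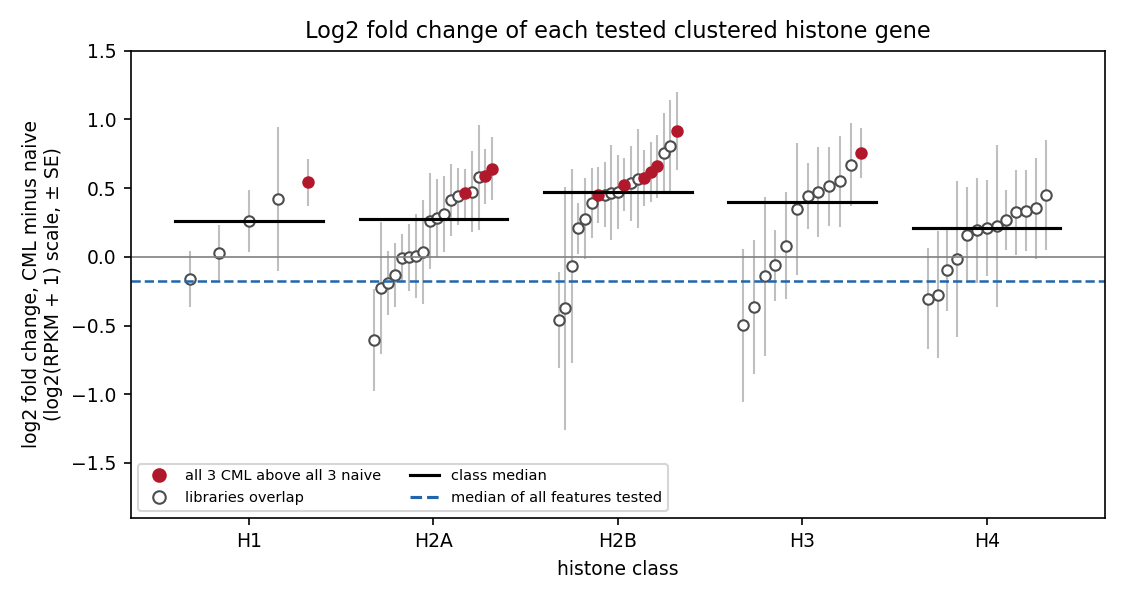
Log2 fold change (CML minus naive, on the log2(RPKM + 1) scale) of each tested member, ordered within its class on the horizontal axis. Bars are ± SE, black lines are class medians and the dashed line is the median of all 13923 features, at -0.18. The 11 filled points mark genes whose 3 CML libraries all exceed the 3 naive libraries, 6 of them in the H2B class and 0 in H4.

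H2B was the only class whose summed level did not overlap between the groups. Its 19 genes summed to 1079, 1078 and 1676 RPKM in CML and to 993, 946 and 849.9 RPKM in naive libraries. The ratio of means was 1.37. In CML replicate 2, the 18 H2B genes with whole reads had 326 reads, with an exact Poisson interval of 291.6 to 363.4 reads. The distance of CML replicate 2 from naive replicate 1 in this sum was within that counting error. H3 genes summed to 677, 384 and 792 RPKM in CML and to 433, 503 and 478 RPKM in naive libraries (ratio 1.31). The values of CML replicate 2 lay below all naive libraries for H3, and the same was seen for H4, H2A and H1. H4 genes summed to 644, 409.7 and 939 RPKM in CML and to 573, 531 and 516 RPKM in naive libraries (ratio 1.23). H2A genes summed to 1393, 1011 and 1898 RPKM in CML and to 1242, 1273 and 1138 RPKM in naive libraries (ratio 1.18). H1 genes, which include the most abundant single members, summed to 1331, 1193 and 1882 RPKM in CML and to 1482, 1573 and 1264 RPKM in naive libraries (ratio 1.02). Without CML replicate 3 the ratios of H1, H2A and H4 were 0.876, 0.987 and 0.975 and that of H2B was 1.16. As a share of all values in a library, the members made up 0.744%, 0.4995% and 0.967% in CML mice and 0.634% to 0.682% in naive mice, so that the naive mice were alike and the CML mice spread to both sides of them.

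**Figure D2:**
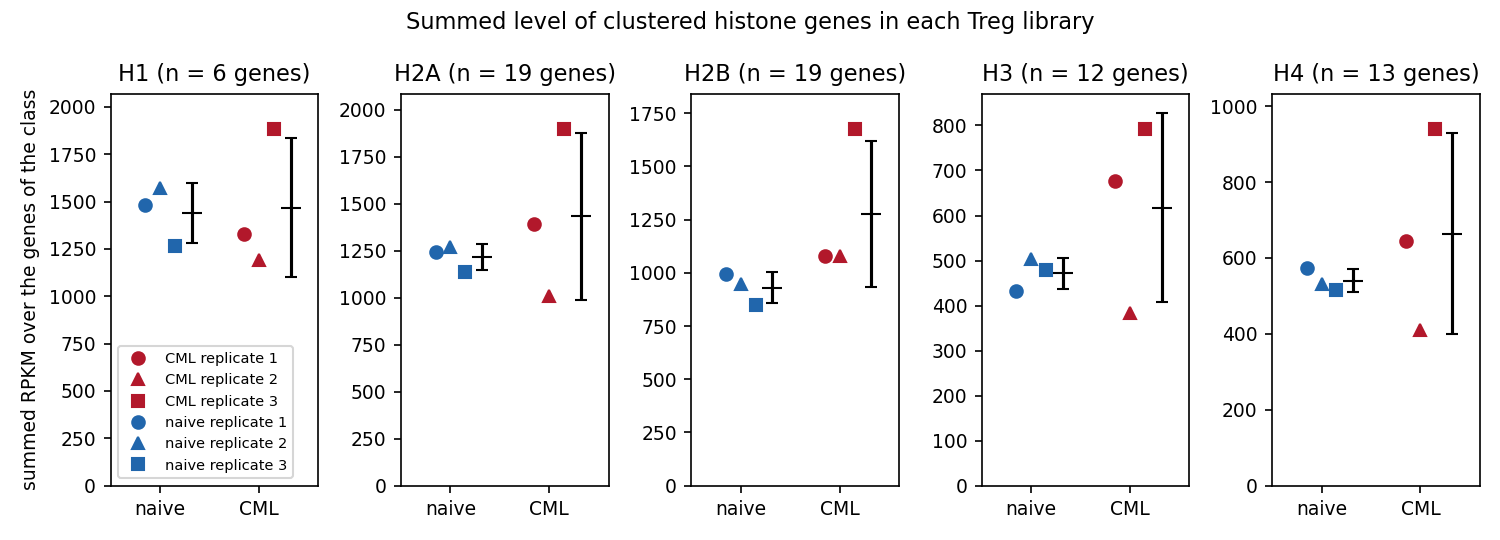
Summed RPKM (vertical axis, from 0) of the genes of each class in each library, with 1 panel for a class and 1 point for a mouse. The black line and bar give the mean ± SD of 3 mice. CML replicate 3 is the highest library in every panel, and H2B is the class in which CML replicate 2 also lies above the naive libraries.

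Linker histones compact chromatin, and the replication-dependent H1 genes contribute in unequal amounts. Hist1h1c was the most abundant member of all, at 656, 600.2 and 912 RPKM in CML and 845, 888 and 668 RPKM in naive libraries, and the groups overlapped (log2 fold change -0.16 ± 0.20 SE, which under quantile normalization was 0.01). Hist1h1e, at 329, 269 and 445 RPKM in CML and 348, 352 and 303 RPKM in naive libraries, overlapped as well. Hist1h1d had 214, 212 and 344 RPKM in CML and 180.0, 246 and 203 RPKM in naive libraries, where again CML replicate 3 alone was above the naive range. Hist1h1b was the H1 gene that separated the groups, with 95.2, 98.7 and 120.4 RPKM in CML (105 ± 13.7, SD, n = 3) and 77.7, 71.1 and 65.6 RPKM in naive Tregs (71.5 ± 6.06, SD, n = 3). Its log2 fold change was 0.54 ± 0.17 (SE) with an unadjusted limma p of 0.0131 and an adjusted p of 0.357. All of its 76-base windows are unique, and the 55 reads behind the value of CML replicate 2 make it one of the better covered members there. Hist1h1a was low and overlapped, at 13.1 to 60.6 RPKM in CML and 15.8 to 30.6 RPKM in naive libraries.

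H2A pairs with H2B in the nucleosome, and 12 of 18 tested H2A genes had a log2 fold change above 0, with a class median of 0.27. Hist1h2af had 101.9, 117 and 184 RPKM in CML and 86.3, 78.9 and 83.2 RPKM in naive libraries, without overlap (log2 fold change 0.64 ± 0.23, unadjusted limma p 0.0242, adjusted p 0.433). Hist1h2ap had 89.6, 79.8 and 122 RPKM in CML and 67.7, 63.2 and 59.5 RPKM in naive libraries (0.59 ± 0.20 on the log2 scale, adjusted limma p 0.409). For Hist1h2ah the values were 69.9, 59.2 and 79.1 RPKM in CML and 48.3, 50.4 and 50.6 RPKM in naive libraries (0.46 ± 0.18, adjusted limma p 0.473). In these 3 genes the naive mice were close to each other and the CML mice all lay above them, but the adjusted threshold was not met. Only 13.2%, 0% and 3.8% of the windows of Hist1h2af, Hist1h2ap and Hist1h2ah are unique. Their values thus depend on how shared reads were assigned and may not be separate observations. The most abundant H2A gene, Hist2h2ac, overlapped, with 132, 80.4 and 139 RPKM in CML and 107, 139 and 100.2 RPKM in naive libraries, and so did Hist1h2al, with 88.6 to 104 RPKM in CML and 83.4 to 114 RPKM in naive libraries. Both had log2 fold changes near 0 (-0.005 and -0.01) that turned to 0.05 and 0.04 under quantile normalization. The most negative value of any member was that of Hist2h2aa2 (-0.60 ± 0.37, adjusted limma p 0.632), named here after its values were seen. It had 95.9, 36.8 and 97.9 RPKM in CML and 125, 110.5 and 89.5 RPKM in naive libraries, where CML replicate 2 lay far below the rest.

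Among H2B genes, the partners of H2A, 16 of 19 had a log2 fold change above 0, 7 (36.8%) had an unadjusted limma p under 0.05 and 6 (31.6%) had no overlap, each in the direction of CML. Hist3h2ba, which lies in the Hist3 locus on chromosome 11 and shares fewer windows with other copies (76.1% unique) than most, had 19.995, 31.7 and 28.7 RPKM in CML (26.8 ± 6.06, SD, n = 3) and 15.7, 11.1 and 14.0 RPKM in naive Tregs (13.6 ± 2.33, SD, n = 3). Its log2 fold change of 0.92 ± 0.28 (95% confidence interval 0.26 to 1.57) was the largest of all members, with an unadjusted limma p of 0.0122 and an adjusted p of 0.353. These levels rested on 58, 10 and 25 reads in CML and on 31, 37 and 52 reads in naive libraries. Hist1h2bf had 41.4, 50.6 and 65.4 RPKM in CML and 28.3, 36.5 and 32.6 RPKM in naive libraries (0.66 ± 0.23 on the log2 scale, adjusted limma p 0.425). Hist1h2bl had 44.8, 41.1 and 50.5 RPKM in CML and 34.9, 23.9 and 29.6 RPKM in naive libraries (0.62 ± 0.22, adjusted limma p 0.425). In Hist1h2bf and Hist1h2bl, as in Hist3h2ba, even the lowest CML library was above the highest naive library, and this lowest library was CML replicate 2 in Hist1h2bl and CML replicate 1 in the others. Hist1h2bj (60.1 to 89.6 RPKM in CML, 43.6 to 50.3 RPKM in naive libraries) and Hist1h2br (53.6 to 73.4 and 39.5 to 44.3 RPKM) behaved alike, with log2 fold changes of 0.57 ± 0.20 and 0.52 ± 0.19. For Hist1h2bc, at 98.1 to 157 RPKM in CML and 80.5 to 89.6 RPKM in naive libraries, the groups did not overlap and the unadjusted limma p was 0.0616. Of the windows of Hist1h2bf, Hist1h2bl, Hist1h2bj, Hist1h2br and Hist1h2bc, 29.7%, 27.1%, 36.6%, 0% and 4.9% are unique. Hist2h2bb, the most abundant H2B gene, had 165, 123 and 184 RPKM in CML and 144, 136 and 124 RPKM in naive libraries and overlapped, as did Hist1h2bn (63.3 to 148 and 74.8 to 92.8 RPKM).

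The testis H2B gene Hist1h2ba was chosen for description after its values were seen, because its neighbor Hist1h2aa was at or near 0. Hist1h2ba had 25.3, 37.7 and 51.3 RPKM in CML and 23.6, 25.8 and 14.2 RPKM in naive libraries, which rest on 74, 12 and 45 and on 47, 87 and 53 reads. The groups overlapped by CML replicate 1 alone (log2 fold change 0.80 ± 0.34, unadjusted limma p 0.0452, adjusted p 0.505). The start sites of the pair are 306 bases apart, 67.0% of the windows of Hist1h2ba are unique, and the overlapping promoters of both hold the same octamer. Hist1h2bh, likewise named after its values were seen, overlapped through 1 library, with 54.5, 111 and 96.4 RPKM in CML and 60.2, 46.4 and 42.0 RPKM in naive libraries (0.76 ± 0.29). Against the class, Hist1h2be was lower in CML by its fitted value (-0.46 ± 0.35, adjusted limma p 0.691), with 52.1, 38.0 and 98.7 RPKM in CML and 88.5, 94.6 and 61.6 RPKM in naive libraries. It too was singled out after its values were seen.

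H3 carries most of the modified residues that mark active and silent chromatin. Hist1h3d had the smallest p of all members, with 67.4, 79.2 and 68.1 RPKM in CML (71.6 ± 6.62, SD, n = 3) and 37.0, 44.7 and 44.4 RPKM in naive Tregs (42.0 ± 4.33, SD, n = 3). The 3 CML mice were close to each other here, and CML replicate 2, the lowest of the CML libraries for 53 members, was the highest. The log2 fold change was 0.76 ± 0.18 (95% confidence interval 0.34 to 1.17), the unadjusted limma p was 0.00305 and the adjusted p was 0.238. Over the 13 alternatives its adjusted p ranged from 0.183 to 0.717. Behind the values stood 211, 27 and 64 reads in CML and 79, 161 and 178 reads in naive libraries, and 23.5% of its windows are unique. Hist2h3b (66.2, 52.8 and 113 RPKM in CML, 39.4, 57.7 and 42.2 RPKM in naive libraries) and Hist1h3b (72.9, 46.9 and 95.8, then 41.3, 45.5 and 59.1 RPKM) were the most abundant H3 genes and overlapped. Hist2h3c1 overlapped as well, at 67.8, 26.4 and 107 RPKM in CML and 41.3, 63.0 and 35.7 RPKM in naive libraries. None of the windows of Hist2h3b and Hist2h3c1 is unique. Of the 12 H3 genes, 8 had log2 fold changes above 0, and the class median was 0.40. The lowest was Hist1h3e at -0.50 ± 0.56, named after its values were seen, whose 3 CML mice spanned 14.7 to 84.1 RPKM, compared with 42.7 to 70.8 RPKM in naive mice.

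H4 is the most conserved histone. Of 13 H4 genes, 9 had log2 fold changes above 0, with a median of 0.21 and a range of -0.31 to 0.45. At an unadjusted limma p under 0.05 there were 0 H4 genes, and 0 had no overlap. Hist1h4d, the most abundant, had 151, 92.8 and 219 RPKM in CML and 104, 145 and 103 RPKM in naive libraries. Hist1h4c had 33.7, 85.0 and 74.3 RPKM in CML and 62.4, 39.8 and 40.8 RPKM in naive libraries, and here CML replicate 1 was the lowest of all 6. For Hist1h4k the CML mice spread to both sides of the naive mice, at 55.6, 15.5 and 100.9 RPKM, compared with 46.9, 32.5 and 36.2 RPKM in naive mice. The value of Hist1h4k in CML replicate 2 came from 4 reads. H4 and H3 were also the classes with the fewest reads in that library, 106 and 131 over all their genes.

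**Figure D3:**
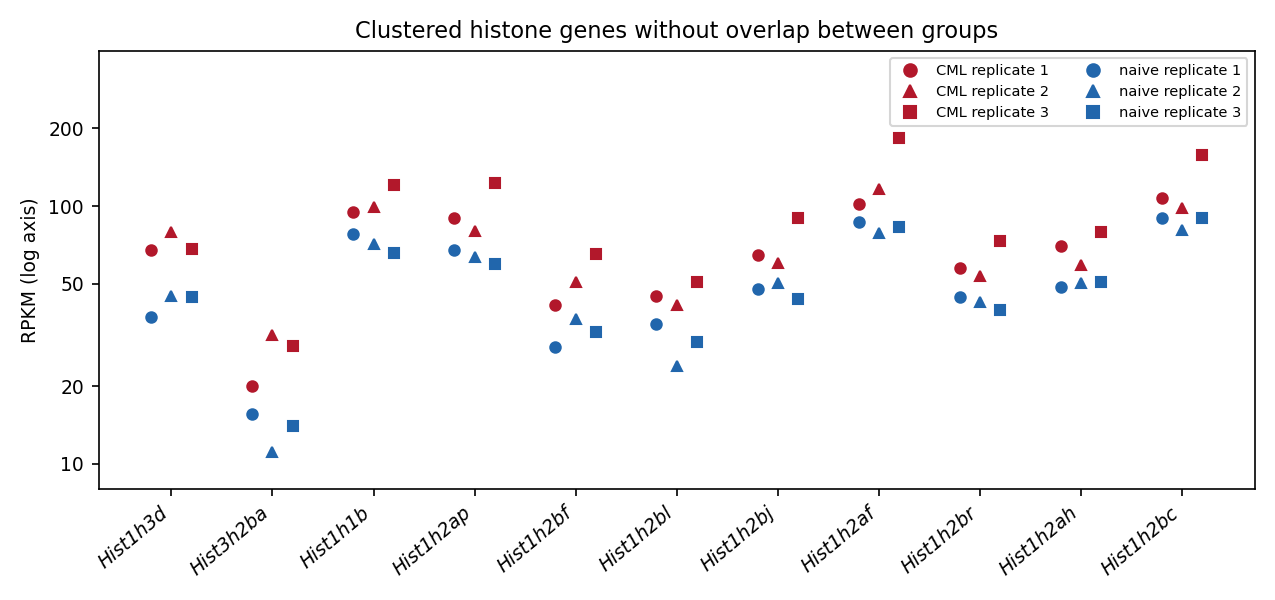
RPKM (log axis) of the 11 members whose CML libraries all exceed the naive libraries, ordered from the smallest limma p at the left, with 1 point for a mouse. CML replicate 3 is the highest CML library in most genes, and Hist1h3d and Hist3h2ba are the genes in which CML replicate 2 is.

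For each of the 11 members without overlap, an exact 2-sided permutation test of the mean RPKM gave p = 0.1, the smallest value that 3 mice against 3 allow. The lack of overlap by which these members were selected fixes this value in advance, so it adds no evidence. CML replicate 3 was the highest CML library in 53 of 67 members and CML replicate 2 the lowest in 53, and the latter was the lowest of all 6 libraries in 32. Of these 32, 10 were H4 genes and 4 were H2B genes.

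Shares of the core histone reads were then compared, since such a share does not depend on the scaling of a library. Hist1h2al and Hist1h2bp, whose values gave no whole reads, are not in these shares. H2A took 36.8%, 34.5% and 36.2% of the reads on H2A, H2B, H3 and H4 genes in CML and 37.9%, 38.9% and 38.1% in naive libraries. Every CML library was below every naive library, although the exact 95% binomial intervals of CML replicate 1 (35.8% to 37.7%) and naive replicate 1 (36.7% to 39.2%), for example, overlapped. The H2B share was 28.8%, 38.0% and 31.9% in CML and 31.5%, 29.5% and 29.1% in naive libraries. The highest H2B share was thus in CML replicate 2, with an interval of 34.7% to 41.3%, while CML replicate 1 was below all naive libraries. The interval of CML replicate 1 (28.0% to 29.7%) overlapped those of naive replicates 2 (28.7% to 30.4%) and 3 (28.2% to 29.9%). H3 took 19.97%, 15.3% and 16.8% in CML and 15.2%, 17.5% and 18.1% in naive libraries. Its share was highest in CML replicate 1 (19.2% to 20.7%), above every naive interval. The H4 share, at 12.3% to 15.1% in CML and 14.0% to 15.3% in naive libraries, overlapped. The CML libraries thus differed from each other in the class that was relatively high, H3 in replicate 1 and H2B in replicate 2.

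**Figure D4:**
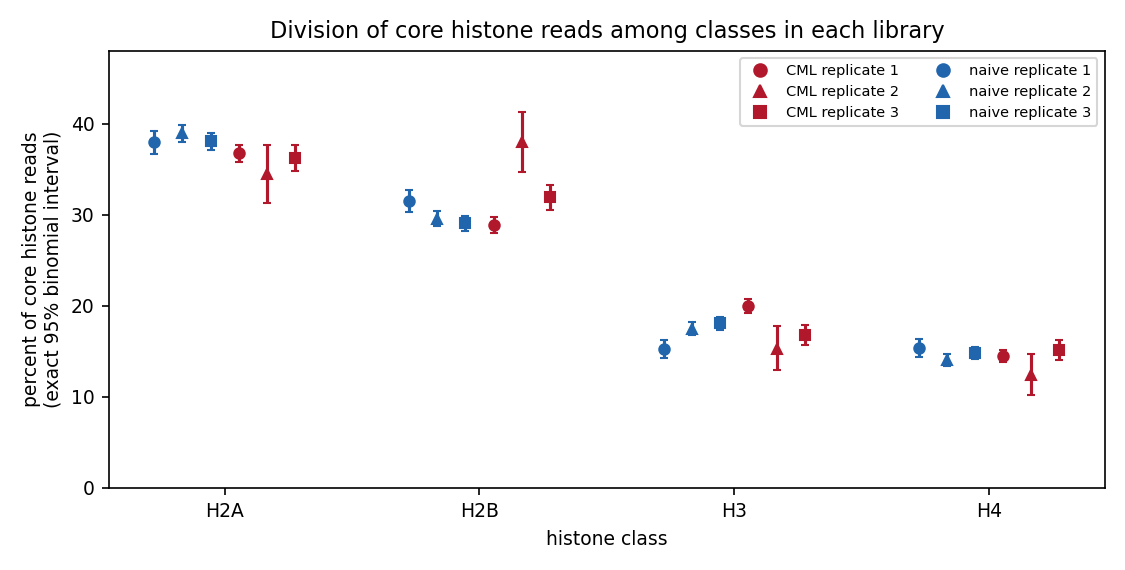
Percent of the reads on core histone genes (vertical axis, from 0) that fell on H2A, H2B, H3 and H4 genes in each library, with exact 95% binomial intervals that cover counting error only. The widest intervals are those of CML replicate 2, which had 859 such reads, compared with 4440 to 10604 in the other libraries.

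Position within the clusters was compared next. The 53 tested members on chromosome 13 had a median log2 fold change of 0.39, with 43 above 0, whereas the 10 on chromosome 3 had a median of -0.0004, with 5 above 0. Of the 7 genes whose windows are all shared with transcripts outside the members, all but Hist3h2a lie on chromosome 3. The level of the chromosome 3 locus is thus uncertain. Of the 11 members without overlap, 10 lay on chromosome 13 and 1 on chromosome 11. In 17 pairs, neighboring members were transcribed away from each other with start sites at most 2000 bases apart (median 270 bases), and 13 of these pairs joined an H2A with an H2B gene. Both genes had no overlap between the groups in 1 pair, Hist1h2ap and Hist1h2br (0.59 and 0.52 on the log2 scale, 236 bases apart), and 1 of the 2 genes did in 5 pairs. Among the 5 were Hist1h2bf with Hist1h2ad (0.66 and 0.28) and Hist1h2bc with Hist1h2ac, whose fitted values had opposite signs (0.45 and -0.23). The windows of Hist1h2ap, Hist1h2br and Hist1h2ad were 0% unique, those of Hist1h2bc 4.9% and those of Hist1h2ac 27.7%. Values of single genes in these pairs thus depend on how shared reads were assigned.

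Members grouped by features of sequence were described in the same way. The 15 tested members with at least 50% unique windows had a median log2 fold change of 0.26, and the 50 with fewer had 0.35. Members annotated to run at least 200 bases past the coding end (24 genes) and the other 41 both had a median of 0.34. Within H2B, the 6 genes with the octamer had a median of 0.46 and the 10 without it 0.55, and within H2A the medians were 0.02 (6 genes) and 0.36 (10 genes). These are descriptions of small groups of genes.

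The other genes of histone supply were read from lists of their own. Of 16 replication-independent histone genes, 10 were tested, 0 were called by limma, 0 had an unadjusted p under 0.05, and the median log2 fold change was 0.11. H2afz, the variant at promoters, had 35.4, 31.2 and 17.0 RPKM in CML and 37.9, 30.6 and 29.1 RPKM in naive libraries (-0.27 ± 0.31, which without CML replicate 3 was 0.04). H2afx, which is phosphorylated at DNA breaks, had 37.7, 19.5 and 71.9 RPKM in CML and 19.2, 24.5 and 17.3 RPKM in naive libraries (0.87 ± 0.44, adjusted limma p 0.568). CML replicate 3 was the highest library for H2afx, and CML replicate 2 was within the naive range. The H3 variant genes H3f3a (30.0 to 59.6 and 28.2 to 48.5 RPKM) and H3f3b (430.2 to 464 and 447 to 664 RPKM) overlapped.

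Genes that transcribe and process histone mRNA numbered 26, of which 25 were tested. By limma 0 were called, 2 (Snrpe and Ccne2) were higher and 0 lower at an unadjusted p under 0.05, and the median log2 fold change was -0.19, close to that of all features. Among all features, 2.92% were higher and 6.77% lower at that p. Without regard to p, the groups did not overlap for 6 of the 25 genes, of which 1 (Snrpe) had its CML values above the naive values and 5 (Coil, Lsm11, Cpsf3, Upf1 and Ctif) had them below. The shares among all features were 4.84% above and 12.2% below. Slbp, the stem-loop binding protein, had 76.8, 52.6 and 124 RPKM in CML and 31.5, 86.0 and 70.6 RPKM in naive libraries (0.46 ± 0.43). Npat, the coactivator of histone gene transcription, had 14.0, 13.1 and 11.8 RPKM in CML and 14.1, 11.5 and 10.95 RPKM in naive libraries (0.08 ± 0.28). Neither gene separated the groups.

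Histone chaperones escort new histones to DNA. All 28 were tested and 0 were called. At an unadjusted limma p under 0.05, 3 were higher and 0 lower, compared with 2.92% and 6.77% of all features. The median log2 fold change was -0.03 (0.03 and 0.04 under the 2 other scalings). The 3 higher genes were Chaf1a and Chaf1b, subunits of the CAF-1 complex that deposits H3 and H4 behind the replication fork, and Hat1, which acetylates new H4. Chaf1a had 10.99, 10.1 and 9.11 RPKM in CML and 0.564, 5.67 and 2.25 RPKM in naive libraries (1.77 ± 0.57 on the log2 scale, adjusted limma p 0.372). Chaf1b had 10.4, 17.1 and 11.6 RPKM in CML and 6.80, 6.15 and 3.68 RPKM in naive libraries (1.105 ± 0.38, adjusted limma p 0.421). For Hat1 the values were 28.2, 60.7 and 39.9 RPKM in CML and 24.7, 23.5 and 23.0 RPKM in naive libraries (0.76 ± 0.29, adjusted limma p 0.47). In all 3 genes the CML libraries lay above the naive libraries, CML replicate 2 included. Nasp, a chaperone of H1 and H3, and Asf1b, a chaperone of H3 and H4, overlapped (0.38 ± 0.32 and -0.14 ± 0.36, the latter 0.02 under quantile normalization).

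Of 42 S phase genes, 41 were tested and 0 were called, with a median log2 fold change of 0.42. At an unadjusted limma p under 0.05, 6 were higher and 1, Rfc4, was lower, compared with 2.92% and 6.77% of all features. Slbp and Chaf1b are on this list too. The mean log2(RPKM + 1) of the list was 4.001, 3.395 and 4.15 in CML and 3.47, 3.50 and 3.63 in naive libraries, and that of the clustered histone genes was 5.86, 5.38 and 6.35 in CML and 5.65, 5.62 and 5.57 in naive libraries. Both lists were highest in CML replicate 3 and lowest in CML replicate 2. The mean over all features tested was also lowest in CML replicate 2, at 3.30, compared with 3.73 to 3.82 in the other libraries. Mki67, a marker of cycling cells, had 83.2, 44.3 and 103 RPKM in CML and 43.9, 43.4 and 46.7 RPKM in naive libraries (0.69 ± 0.30, unadjusted limma p 0.0537, adjusted p 0.525), so that CML replicate 2 was within the naive range. Rrm2, the S phase subunit of ribonucleotide reductase, had 20.2, 12.3 and 30.6 RPKM in CML and 15.6, 11.7 and 13.9 RPKM in naive libraries (0.50 ± 0.36), in the same order of CML libraries.

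**Figure D5:**
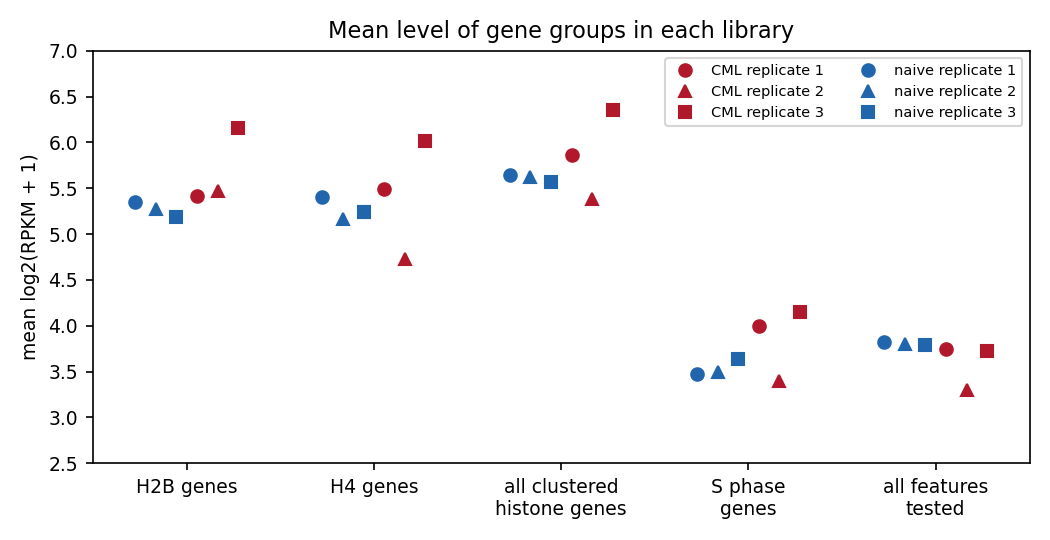
Mean log2(RPKM + 1) of H2B genes, H4 genes, all tested clustered histone genes, S phase genes and all features tested in each library, with 1 point for a mouse. CML replicate 3 is the highest and CML replicate 2 the lowest library for the clustered histone genes (6.35 and 5.38) and for S phase genes (4.15 and 3.395).

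Markers of other cells in the BM differed between the libraries, each list in its own way. The summed level of the 13 erythroid markers present in the files (of 17 listed) was 178, 73.5 and 294 RPKM in CML and 37.2 to 63.4 RPKM in naive libraries, with the highest sum in CML replicate 3. Hbb-bs, Hbb-bt and Car2 were higher in every CML library, and Epor was at 0 in all libraries. The 15 neutrophil and myeloid markers summed to 27.0, 227 and 240.2 RPKM in CML and to 42.7 to 63.6 RPKM in naive libraries, with Elane higher and Csf1r lower in every CML library and Ly6g and Retnlg at 0. The CD8 T cell markers (2 of 2) summed to 51.1 to 74.2 RPKM in CML and 26.2 to 58.7 RPKM in naive libraries. The 10 of 11 B cell and plasma cell markers in the files summed to 3.18 to 9.54 RPKM in CML and 10.4 to 11.3 RPKM in naive libraries. The 7 stem and progenitor markers summed to 13.6 to 24.4 RPKM in CML and 14.8 to 20.5 RPKM in naive libraries, with Hoxa9 at 0. Of these markers, 1 was higher and 0 were lower in every CML library. The part of these cells, of S phase genes and of depth in the levels of clustered histone genes was not tested.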

How the data were processed

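Per the labels and the methods of the study, total RNA of FACS-purified BM Tregs (3 CML and 3 naive mice) was sequenced in single reads of 76 bases. Assembly with SeqMan NGen 15 and quantification with ArrayStar 15 were done by the authors, and the submitters' processing notes name GRCm38 and mm10. The deposited values of each feature are taken here to be RPKM. The unit is not given in the sources used here. This reading was chosen because value times coding length gave whole reads at depths fitted to the H4 genes. The value 0.001 marks features without reads and was set to 0. Names repeated in the files (41) were kept as separate features.

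The 6 libraries were compared with limma 3.58.1 (R 4.3.3, trended prior variance) on log2(RPKM + 1) for features with a mean of at least 1 RPKM, with Benjamini-Hochberg adjustment over all features, and the fit was tested on simulated data. The methods name DESeq2, which needs counts and was not used. p-values measure the spread between 3 mice in each group. Members and lists were chosen with earlier results of these data known. The genes named are the 3 most abundant members of each class, members past the adjusted threshold, up to 10 members in each direction without overlap and with an unadjusted p under 0.05, and 13 other genes given by name (H2afz, H2afx, H3f3a, H3f3b, Slbp, Npat, Asf1b, Chaf1a, Chaf1b, Nasp, Hat1, Mki67 and Rrm2). Other genes are named as members of a count of 5 or fewer, or after their values were seen, as stated there. Alternatives were the pseudocount (0.1), no filter on low values, quantile normalization, an equal 75th percentile, no trend, library weights, a replicate block and each library left out in turn. Python 3.11.15 with numpy 2.4.6, pandas 2.3.3, scipy 1.17.1 and matplotlib 3.10.9 was used for the other steps. Replicate numbers belong to different mice and were not used as pairs.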

Additional observations from a re-analysis of the deposited data

How the results depend on the processing

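No clustered histone gene was called by limma under any of the 13 alternatives, where the lowest adjusted p of a member ranged from 0.163 to 0.717, and the median of all members stayed above that of all features. Of 312 values of named members under an alternative, 296 kept their direction and their side of the threshold. The cause of the changes below was not tested, except that a library left out leaves fewer samples. The 24 features called became 1 with no filter on low values, 53 with quantile normalization, 53 with an equal 75th percentile, 11 without trend, 45 with library weights, 1 with the replicate block, and 0 to 29 with a library left out. Features at an unadjusted p under 0.05 that were higher in CML were 742 with quantile normalization and 258 to 839 with a library left out, and the lower ones were 504 to 1381. Members higher at that p (12) were 19 with an equal 75th percentile, 4 without trend, 7 with the replicate block and 2 to 34 with a library left out, and lower members were 0 to 1. Members higher without overlap (11) were 20 with quantile normalization, 20 with an equal 75th percentile and 11 to 39 with a library left out, and lower ones were 0 to 2. The share of all features higher without overlap was 4.84% in the main fit. It was 8.88% and 6.49% under these 2 scalings and 13.9% without CML replicate 2, which gave the 39 members. The replicate block changed no other call, and the deviations of same-numbered samples did not correlate (r = -0.0048, -0.0016 and -0.0192), so that they share only a number.

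With a library left out, the class medians of log2 fold change ranged from -0.057 to 0.38 for H1, -0.033 to 0.53 for H2A and -0.14 to 0.51 for H4, and the ratios of summed RPKM from 0.876 to 1.12 for H1, 0.987 to 1.35 for H2A and 0.975 to 1.47 for H4. The chaperone median was 0.0302 with quantile normalization, 0.0405 with an equal 75th percentile, 0.0146 with library weights and -0.13 to 0.0862 with a library left out. Single genes near 0 changed sign. With quantile normalization Hist1h1c was 0.008, Hist2h2ac 0.0471, Hist1h2al 0.0397 and Asf1b 0.0155. With an equal 75th percentile Hist2h2ac was 0.0651 and Hist1h2al 0.0614, and with library weights Hist2h2ac was 0.16. With a library left out the ranges were -0.16 to 0.20 for Hist1h1e, -0.15 to 0.24 for Hist2h2ac, -0.13 to 0.0947 for Hist1h2al, -0.0144 to 0.59 for Hist1h2bn, -0.0926 to 0.90 for Hist2h3c1, -0.36 to 0.96 for Hist1h4k, -0.47 to 0.0379 for H2afz and -0.31 to 0.0377 for Asf1b. Depth limits CML replicate 2 most, where 4 members had 3 reads or fewer.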
